A study of Mus musculus with 3 samples.

Results

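The vacuolar proton ATPase (V-ATPase) genes described here are 10 of the 55536 genes in the tables, chosen by symbol: Atp6v0a1, Atp6v0a2, Atp6v0c, Atp6v0d1, Atp6v0d2, Atp6v1a, Atp6v1b2, Atp6v1h, Atp6ap1 and Atp6ap2. Their levels were not used in the choice, although earlier results of these data were known when it was made. RNA came from the cytosolic fraction of C57BL/6J mouse bone marrow-derived macrophages, which are primary cells grown out from marrow progenitors. The cells had been given 100 ng/ml lipid A, the TLR4-activating part of bacterial lipopolysaccharide, for 0 minutes, so no stimulated group was available for comparison. Ribosome-depleted total RNA was sequenced in 3 libraries, which form 1 group and are called replicates 1, 2 and 3. All 3 carry the same donor label but separate biosample labels, with sex and age not collected. The labels do not say that they came from separate animals or cultures, so an SD here covers the spread of 3 samples that may be technical repeats.

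The V-ATPase is a rotary pump that uses ATP to move protons into lysosomes, endosomes, phagosomes and Golgi vesicles. Its V1 sector, on the cytosolic face, hydrolyses ATP through the A and B subunits. Its V0 sector, in the membrane, carries protons through a ring of proteolipid c subunits that turns against the a subunit, and the d subunit couples the ring to the central stalk. In macrophages the pump provides the low pH in which lysosomal hydrolases digest phagocytosed material, and it also serves as a platform for amino acid sensing by the Ragulator complex and the Rag GTPases.

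Expected counts over genes ranged from 26318761 to 56290298 per library. Levels are in TPM, transcript abundance corrected for length and set to a common total per library. Protein-coding genes carried 83.4% to 88.0% of counts but 26.2%, 22.0% and 21.7% of TPM in replicates 1, 2 and 3. Coding TPM was therefore higher in replicate 1 in general: the median log2 difference of detected coding genes from replicate 1 was -0.25 in replicate 2 and -0.25 in replicate 3. The cell label was checked against marker genes, and 7 of 7 macrophage markers had a TPM of at least 1 in all 3 libraries, with Lyz2 at 4792 TPM. The same held for 1 of 7 osteoclast, 1 of 6 neutrophil, 0 of 5 dendritic cell and 0 of 5 fibroblast markers. In bulk RNA, fewer cells of a type and less RNA per cell cannot be told apart.

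All 10 genes were detected, taken as a TPM of at least 1 in every library. Of all genes 17.0% met this rule, and of protein-coding genes 41.0% did. The 10 genes together received 0.462%, 0.456% and 0.439% of expected counts in replicates 1, 2 and 3, with at least 1267 counts for each gene in each library. They made up 0.541% ± 0.0102 (SD, n = 3) of protein-coding TPM. The median of their mean levels was 80.8 TPM, against 7.19 TPM for detected protein-coding genes. Their levels ran over a 119-fold range, from Atp6v0c at the top to Atp6v0a2 at the bottom.

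**Figure D1:**
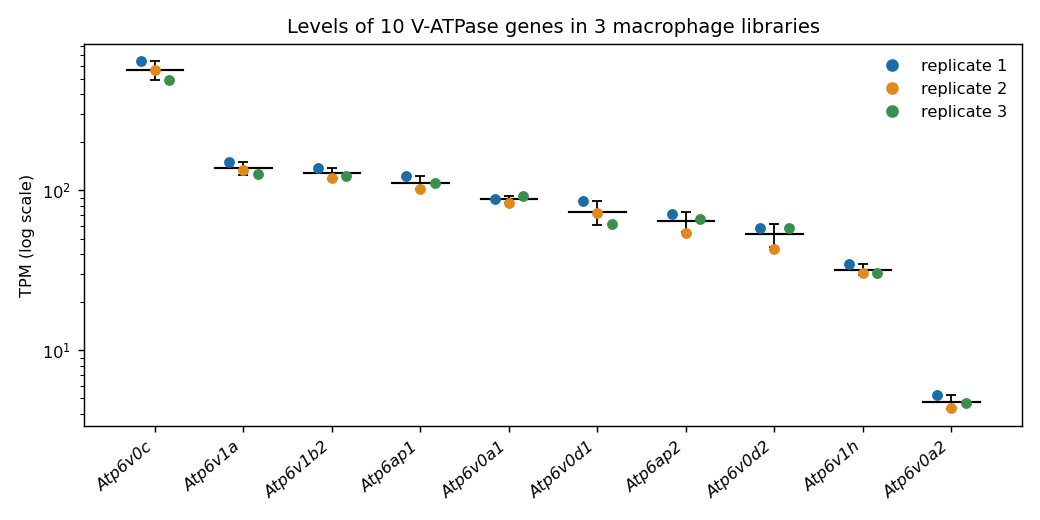
TPM on a log axis for the 10 genes in order of mean level, with a point for each library, a horizontal line for the mean and bars for the SD over 3 libraries. Atp6v0c stands above all others in each library, at 492 to 641 TPM, and Atp6v0a2 stands below all others, at 4.33 to 5.26 TPM.

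In the membrane sector, the most abundant mRNA encoded the c subunit, the proteolipid whose copies form the proton-carrying ring. Atp6v0c (chromosome 17, 24163866 to 24169702, minus strand, mm10) was measured at 641 TPM in replicate 1, 569 in replicate 2 and 492 in replicate 3 (mean 567 ± 74.8, SD, n = 3). It ranked 38, 34 and 40 among all protein-coding genes in the same libraries. The lowest library of Atp6v0c lay above the highest library of every other gene of the 10. A processed pseudogene, Atp6v0c-ps2, matches the transcript at 99.8% identity over 465 bases and was assigned 71, 105 and 122 counts, against 28821, 46357 and 52425 for Atp6v0c. Reads that fall in the shared stretch could be assigned to either, and the pseudogene's share of the assigned counts was small. Atp6v0b, which encodes the related c'' proteolipid of the same ring and is not among the 10, stood at 136, 109 and 106 TPM. The log2 ratio of Atp6v0c to Atp6v0b, computed with 0.1 TPM added to each level, was 2.24, 2.39 and 2.22, a 4.86-fold difference on average.

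Of the a subunits, which form the static path for protons and carry the targeting information of the pump, Atp6v0a1 was abundant and Atp6v0a2 was low. Atp6v0a1 (chromosome 11, 101009452 to 101063719, plus strand) was measured at 88.9, 83.7 and 92.1 TPM in replicates 1, 2 and 3 (mean 88.2 ± 4.25). Atp6v0a2 (chromosome 5, 124628576 to 124724455, plus strand), an isoform known mainly from the Golgi and endosomes, was measured at 5.26, 4.33 and 4.70 TPM (mean 4.76 ± 0.468). The levels of these 2 genes did not overlap in any library. On the log2 scale the ratio of Atp6v0a1 to Atp6v0a2 was 4.05, 4.24 and 4.26, with a mean of 4.19 ± 0.12, or 18.2-fold. The exact two-sided sign-flip test over 3 libraries gave p = 0.25, which is the smallest value that 3 libraries can give, so ratios are judged by their sign and spread. The rank of Atp6v0a2 among protein-coding genes was between 5648 and 5918.

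Tcirg1 encodes the a3 subunit, the form best known from the osteoclast border and from lysosomes, and stood at 102, 91.9 and 100.4 TPM. Of the summed TPM of the 4 a-subunit genes, Tcirg1 took 51.3% ± 0.601, Atp6v0a1 46.2% ± 0.766 and Atp6v0a2 2.49% ± 0.165, and the kidney form Atp6v0a4 had 0 counts in every library. The order of the leading pair depended on the table: in the kallisto-format transcript tables Atp6v0a1 took 50.5% ± 1.85 and Tcirg1 47.0% ± 1.82. The log2 ratio of Tcirg1 to Atp6v0a1, chosen after the values were seen, was 0.15 ± 0.04 in the gene tables and -0.10 in the kallisto-format tables. The low share of Atp6v0a2 was found in both formats. Its posterior mean TPM in replicate 3 was 13.7, with a deposited upper bound of 31.1, and a 126-base noncoding transcript, Atp6v0a2-206, took 64.9% of the gene's posterior mean in that library and 0% of the maximum likelihood estimate used here.

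Both d subunits, which sit on the ring and join it to the stalk, were detected at comparable levels. Atp6v0d1 (chromosome 8, 105524465 to 105566047, minus strand), the form found in nearly all tissues, was measured at 86.4, 72.3 and 61.3 TPM (mean 73.3 ± 12.6). Atp6v0d2 (chromosome 4, 19876841 to 19922605, minus strand), the form with restricted expression that is known from osteoclasts and macrophages, was measured at 57.8, 43.2 and 58.2 TPM (mean 53.1 ± 8.57). Replicate 3 had the lowest Atp6v0d1, and the levels of Atp6v0d1 and Atp6v0d2 differed by little there. Atp6v0d2 was highest in replicate 3, only just above replicate 1. Over detected subunit genes, the TPM ratio of replicate 3 to replicate 1 was related to transcript length, as described below. Atp6v0d1 and Atp6v0d2 have lengths of 1618 and 2539 bases, and the part of length in their shift was not tested. The log2 ratio of Atp6v0d1 to Atp6v0d2 was 0.58, 0.74 and 0.07 (mean 0.46 ± 0.35), positive in 3 of 3 libraries but not beyond 2 SD, and the mean without replicate 3 was 0.66. Atp6v0d2 thus supplied 40.1%, 37.4% and 48.7% of the summed d-subunit TPM.

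Because Atp6v0d2 is also an osteoclast gene, osteoclast markers were read beside it. Their summed TPM was 5.81, 7.37 and 6.80 over 7 genes in replicates 1, 2 and 3, of which Itgb3, an integrin that macrophages also express, gave 3.24, 5.39 and 4.35. Ctsk, the main collagenase of osteoclasts, stood at 1.19, 0.98 and 1.00 TPM, and the fusion protein gene Ocstamp had 0 counts. Without Itgb3 the sum of the other 6 was 2.57, 1.98 and 2.45, far below Atp6v0d2. This sum without Itgb3 was lowest in replicate 2, as were Atp6v0d2 and the summed macrophage markers, at 7271, 5082 and 5546 TPM. The sum over all 7 genes and Itgb3 alone were instead highest in replicate 2, so this likeness depended on leaving Itgb3 out. Of detected protein-coding genes, 90.7% were lower in replicate 2 than in replicate 1. The part of osteoclast-like cells in the level of Atp6v0d2 was not tested.

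**Figure D2:**
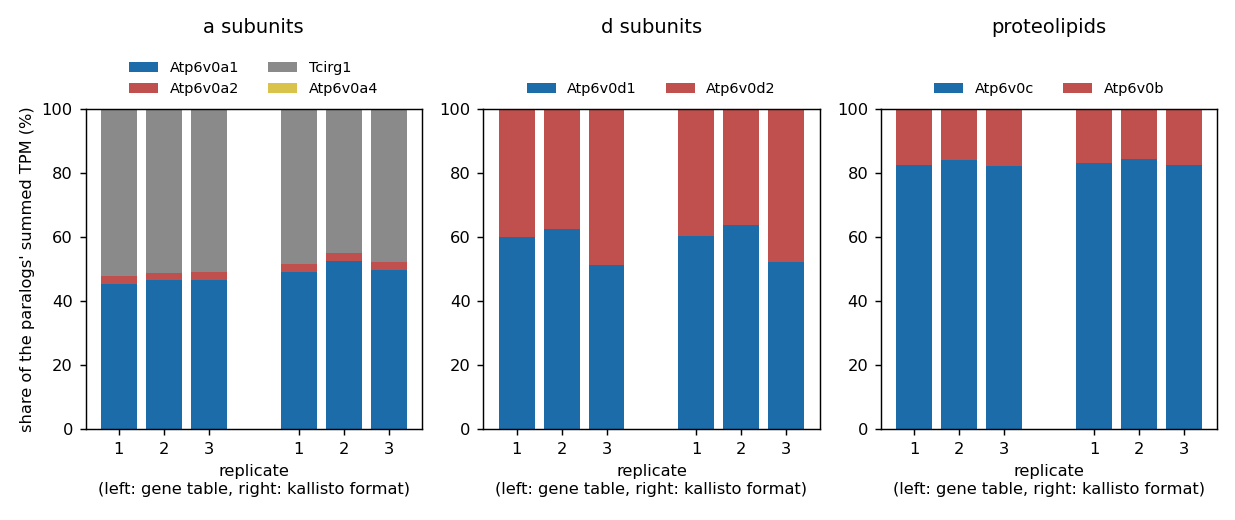
Share of the paralogs' summed TPM, in percent, for the a subunits, the d subunits and the proteolipids, with a stacked bar for each of 3 libraries in the gene tables (left) and in the kallisto-format tables (right). Atp6v0a1 and Tcirg1 fill nearly all of the a-subunit bars in both formats and change order between them, and Atp6v0d2 takes 48.7% of the d-subunit bar in replicate 3 of the gene tables.

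In the catalytic V1 sector, the A and B subunits, which alternate in the ATP-hydrolysing head, had nearly the same level. Atp6v1a (chromosome 16, 44085402 to 44139705, minus strand), which encodes the catalytic A subunit, was measured at 151, 134 and 127 TPM (mean 137 ± 12.5). Atp6v1b2 (chromosome 8, 69088646 to 69113711, plus strand), which encodes the B2 subunit, was measured at 139, 120.0 and 124 TPM (mean 128 ± 10.1). Atp6v1a was the higher in each library, but the ranges over libraries overlapped. The log2 ratio was 0.12, 0.16 and 0.04 (mean 0.11 ± 0.06), which did not pass 2 SD. In the kallisto-format tables the mean ratio was 0.30. The renal and epididymal paralog Atp6v1b1 had 0 counts in all 3 gene tables, so Atp6v1b2 made up 100% of the B-subunit TPM there. A count of 0 still allows 3 counts, which in CPM, counts relative to the library total, is 0.114, 0.0716 and 0.0533 in replicates 1, 2 and 3; this limit covers counting error only.

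The H subunit, which is needed for activity and holds released V1 inactive, was the lowest V1 gene of the 10. Atp6v1h (chromosome 1, 5070018 to 5162529, plus strand) was measured at 34.9, 30.3 and 30.7 TPM (mean 31.9 ± 2.52). It lay below Atp6v1a and Atp6v1b2 in every library, without overlap. Atp6v1a exceeded it by a log2 ratio, chosen after the values were seen, of 2.12, 2.14 and 2.05, or 4.29-fold.

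The accessory proteins Atp6ap1, which takes part in assembly of the membrane sector, and Atp6ap2, also called the prorenin receptor, were both well expressed. Atp6ap1 (chromosome X, 74297097 to 74304721, plus strand) was measured at 123, 103 and 110.6 TPM (mean 112 ± 10.2). Atp6ap2 (chromosome X, 12587801 to 12617049, plus strand) was measured at 71.3, 54.1 and 66.6 TPM (mean 64.0 ± 8.90). Both genes were lowest in replicate 2, and their ranges did not overlap. Atp6ap1 exceeded Atp6ap2 by a log2 ratio of 0.79, 0.92 and 0.73 (mean 0.81 ± 0.10), or 1.76-fold.

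In descending order of mean TPM the genes were Atp6v0c, Atp6v1a, Atp6v1b2, Atp6ap1, Atp6v0a1, Atp6v0d1, Atp6ap2, Atp6v0d2, Atp6v1h and Atp6v0a2, and the kallisto-format tables gave the same order. Neighbours were taken to differ beyond their spread where the log2 ratio had the same sign in all libraries and its mean exceeded 2 SD. By this rule 3 of the 9 neighbouring pairs did not pass: Atp6v1a and Atp6v1b2, Atp6v0a1 and Atp6v0d1, and Atp6v0d1 and Atp6ap2. By kallisto-format TPM 3 of 9 did not pass either, but Atp6v1a over Atp6v1b2 passed, at 0.30 ± 0.13, and Atp6ap1 over Atp6v0a1 did not, falling from 0.34 ± 0.11 to 0.09 ± 0.11. The ratio of Atp6v0d1 to Atp6ap2 changed sign between libraries, at 0.28, 0.42 and -0.12 on the log2 scale. The largest steps were from Atp6v0c to Atp6v1a, at 2.04 ± 0.08, and from Atp6v1h to Atp6v0a2, at 2.72 ± 0.05. Genes whose levels followed the median of the 10 most closely were Mfsd12, Nckap1l and Atp5a1, within a log2 difference of 0.033, 0.043 and 0.067 in each of 3 libraries. A likeness over 3 libraries is a description of level and not of a shared pattern across conditions.

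The rest of the pump was read from a list of 16 other subunit genes, of which 10 were detected. Rnasek, which encodes a small membrane protein of the V0 sector, had the highest mean of them, at 144, 125 and 99.4 TPM, although Atp6v0b and Tcirg1 were above it in replicate 3. The mRNAs for the stalk and peripheral subunits C1, D, E1, F and G1 had means between 36.9 and 110.6 TPM, inside the wide, 119-fold range of the 10 genes. The 6 genes below the threshold in all libraries were Atp6v0e2, at 0.02 to 0.04 TPM, and Atp6v0a4, Atp6v1b1, Atp6v1c2, Atp6v1e2 and Atp6v1g3, each with 0 counts in every library. All 6 are paralogs of a detected subunit, and they are known mainly from kidney, testis, brain or other specialised tissues. Atp6v1g2, known from neurons, was just above the threshold at 1.24, 1.02 and 1.23 TPM.

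**Figure D3:**
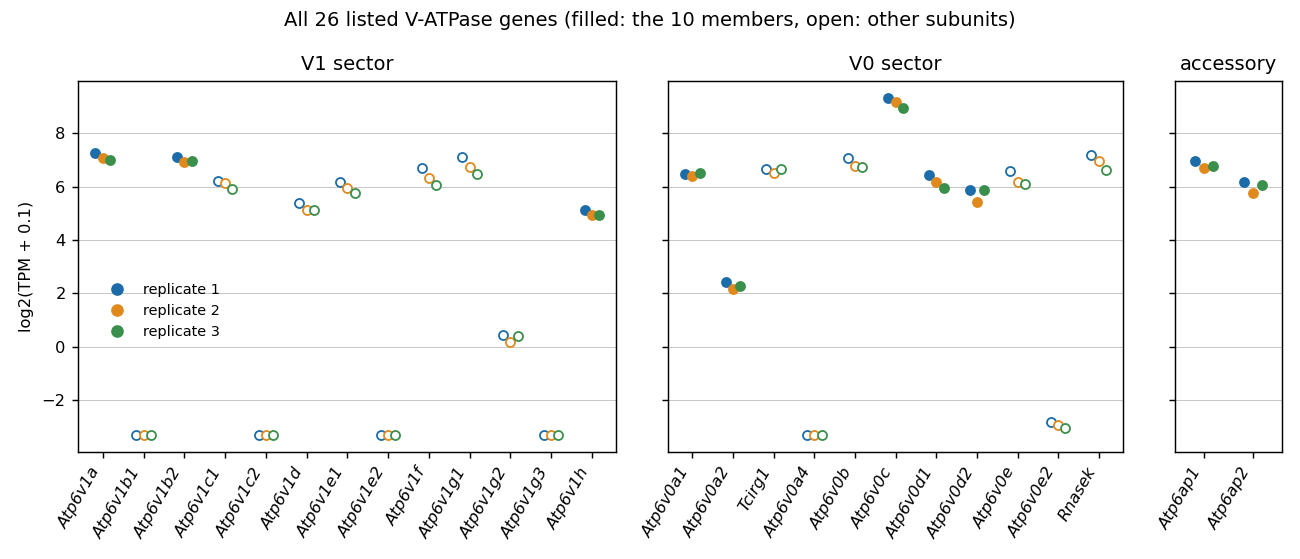
Level as log2(TPM + 0.1) of the 26 listed V-ATPase genes by sector, with a point for each of 3 libraries, filled for the 10 genes described here and open for the other 16. The 5 genes with 0 counts lie on the floor of the scale, and Atp6v0a2 and Atp6v1g2 lie between the floor and the main group.

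Genes that assemble or regulate the pump had a lower median level than the subunits. Of 10 such genes 9 were detected, with a median mean level of 8.63 TPM and the highest, Oxr1, which encodes a TLDc-domain protein, at 24.5, 19.2 and 21.9 TPM. The related Tldc2 had 0 counts in each library. Of 10 genes for Ragulator and the Rag GTPases, which dock on the lysosome and bind the pump, 9 were detected, with a median of 23.8 TPM. The highest was Rragc at 88.4, 74.8 and 66.0 TPM, and Rragb, a paralog of Rraga, was below the threshold at 0.15, 0.19 and 0.16 TPM. All 7 lysosomal ion channel and exchanger genes were detected, and the highest, Clcn7, which encodes the chloride-proton exchanger of lysosomes, stood at 49.0, 41.2 and 39.9 TPM. These lists were described by counts and medians only.

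Among isoforms, most of the 10 genes were read as a single dominant transcript. The mean share of the leading transcript, the percentage of the gene's TPM assigned to it, was at least 90% for 7 of 10 genes, against 41.2% of detected protein-coding genes. With posterior mean TPM it was 6 of 10, against 32.7%, and with kallisto-format TPM 6 of 10, against 33.1%, as the share of Atp6v0a2-201 fell from 97.2% to 72.1% and 89.8%. The same transcript led in the kallisto-format tables for 10 of 10 genes. By the first estimate the exceptions were Atp6v1h-201 at 88.1% ± 2.91, Atp6v1a-202 at 79.6% ± 1.5 and Atp6v0a1-202 at 62.7% ± 0.907. The second Atp6v1a transcript, Atp6v1a-201, took 16.9%, 21.3% and 19.7%. It encodes the same 1851 coding bases, and its ends differ from those of Atp6v1a-202 by 109 bases at the start and 243 bases at the 3' end. The annotated lengths, 3896 and 4234 bases, differ by less than these distances together, so the ends are not the whole difference. In the kallisto-format tables the share of Atp6v1a-202 was lower, at 58.8%, 52.3% and 59.0%.

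Atp6v0a1 was the gene with the most divided isoforms, and its coding transcripts differ by short in-frame exons placed at the same junction. Transcript Atp6v0a1-201 includes an 18-base exon at chr11:101049459-101049476, and Atp6v0a1-210 includes a different 18-base exon at chr11:101054831-101054848 (mm10, plus strand). The leading Atp6v0a1-202 has neither. The sequences are shown because these exons are the coding difference between the transcripts, with the exon in capitals and 30 bases of the neighbouring exons in lower case, 5′ to 3′, from the GENCODE M21 transcripts.
Atp6v0a1-201: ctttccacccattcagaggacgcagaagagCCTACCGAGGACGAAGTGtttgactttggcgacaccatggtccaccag
Atp6v0a1-210: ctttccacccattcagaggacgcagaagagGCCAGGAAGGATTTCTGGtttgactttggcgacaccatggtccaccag
Atp6v0a1-202: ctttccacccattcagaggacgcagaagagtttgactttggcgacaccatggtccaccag
The flanks are identical, each exon begins on a codon boundary, and neither shifts the reading frame.

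Of the TPM of transcripts that span this junction, 21.5%, 27.1% and 23.5% carried either exon in replicates 1, 2 and 3 (mean 24.0% ± 2.82). The split between the exons varied far more than their sum. The upstream exon was assigned 17.8%, 6.74% and 4.35%, and the downstream exon 3.69%, 20.3% and 19.2%. By these estimates the upstream exon led in replicate 1 and the downstream exon in replicates 2 and 3. The deposited TPM intervals of Atp6v0a1-201 and Atp6v0a1-210 overlapped in replicate 1, at 4.68 to 14.5 and 2.63 to 11.2. They also overlapped in replicate 3, at 1.41 to 9.52 and 8.53 to 17.3, but not in replicate 2. Posterior mean shares in replicate 1 were closer, at 10.8% and 7.30% of the gene's TPM, against 15.8% and 3.27%. The kallisto-format tables gave 11.5%, 10.5% and 9.08% for the upstream exon and 4.33%, 7.70% and 9.60% for the downstream exon, with the upstream exon leading in replicates 1 and 2. The sum there was 17.6% ± 1.55. The change of leading exon from replicate 1 to replicate 2 was thus present in the first format and absent in the kallisto format. Atp6v0a1-202 is annotated from its coding start, at 101011821, with 20 exons. Atp6v0a1-201 and Atp6v0a1-210 start further upstream, at 101009452 and 101009487, with 22 exons each, the 18-base exon included. The part of this difference in the assigned shares was not tested. These events were chosen after the values were seen.

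The H subunit gene carries a longer alternative coding exon of 54 bases, at chr1:5101070-5101123 (mm10, plus strand), which is in frame as well. Its sequence is shown, in capitals between 30-base flanks, beside the junction of the transcript that skips it.
Atp6v1h-201: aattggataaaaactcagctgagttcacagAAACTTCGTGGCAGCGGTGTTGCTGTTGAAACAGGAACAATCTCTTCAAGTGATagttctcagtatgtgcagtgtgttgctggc
Atp6v1h-204: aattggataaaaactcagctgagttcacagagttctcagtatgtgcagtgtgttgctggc
The exon was carried by 98.2%, 96.8% and 97.4% of the TPM of transcripts spanning the junction (mean 97.5% ± 0.735), and by 97.8% ± 0.609 in the kallisto-format tables. The skipping transcript Atp6v1h-204 was therefore minor in all 3 libraries and both formats.

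**Figure D4:**
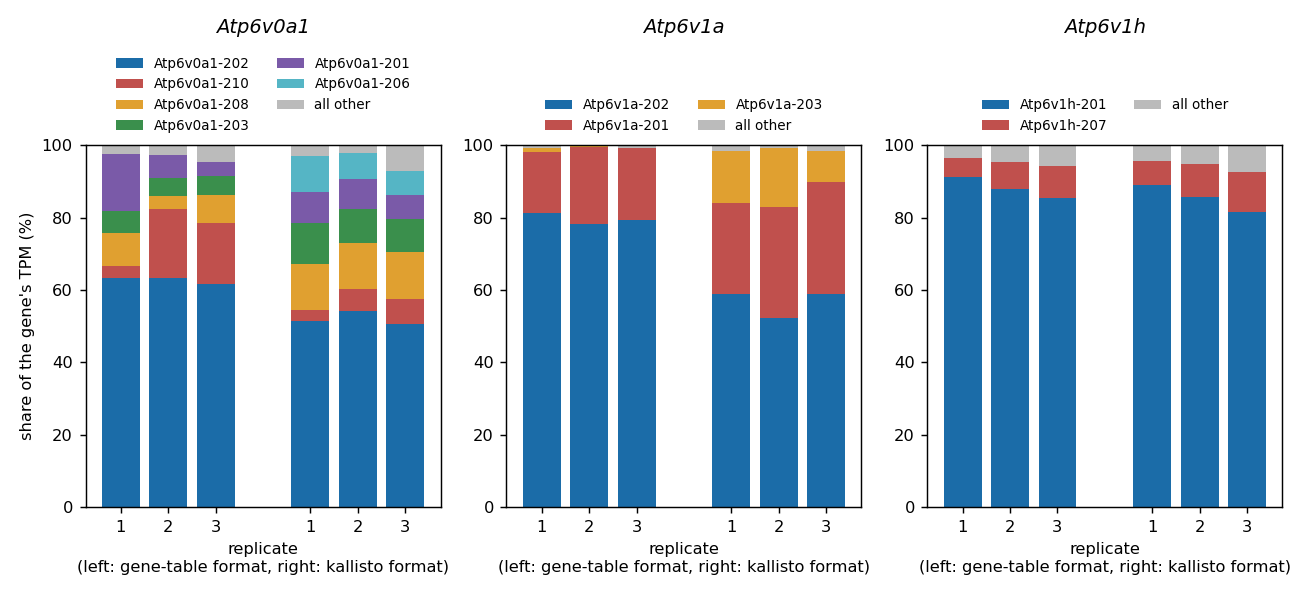
Share of the gene's TPM, in percent, taken by each transcript of Atp6v0a1, Atp6v1a and Atp6v1h, with a stacked bar for each of 3 libraries in the gene-table format (left) and the kallisto format (right). Atp6v0a1-201 and Atp6v0a1-210 exchange places between replicate 1 and replicates 2 and 3 on the left, and Atp6v1a-202 is lower in the kallisto format in all 3 libraries.

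Promoter sequence was read for 6 of the 10 genes, which have an entry in the RefSeq table (GRCm38.p6) of 250 bases before to 50 bases after each start. These 6 genes had 8 windows, 3 of them for Atp6v0c and 1 for each other gene, while the background below is counted by window. The palindrome TCACGTGA, the core of the CLEAR element bound by TFEB and related factors at lysosomal genes, was searched on both strands. It was present for Atp6v0d1 and Atp6v1a, at bases -4 to 3 and -132 to -125 from the start, and in 320 of all 32851 windows (0.974%). The shorter E-box CACGTG, which the longer motif contains, was found for the same 2 genes and in 7.15% of windows. The 30 bases around each match are shown with the motif in capitals, on the minus strand, at chr8:105566050-105566079 for Atp6v0d1 and chr16:44139373-44139402 for Atp6v1a.
Atp6v0d1: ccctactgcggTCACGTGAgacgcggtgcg
Atp6v1a: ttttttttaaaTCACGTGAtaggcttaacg
A match is a description of these letters in this window. No data on binding were analysed here.

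The spread of the genes between libraries was read from log2 CPM with TMM scaling, which removes the difference in overall level between libraries. The highest library exceeded the lowest by more than 1.5-fold for 0 of 10 genes, against 15.4% of all genes past the count filter. The median SD was 0.0782 for the 10 genes and 0.119 for all genes. Without replicate 3 it was 0.0417 and 0.0853. These comparisons used all 12413 genes past the filter and were not matched for level. The median level of the 10 genes was 80.8 TPM, against 7.19 TPM for detected protein-coding genes. The part of level in the smaller spread of the 10 genes was not tested. A library more than 25% above the lowest was found for 33.9% of all genes and for 1 of the 10, Atp6v0d2, with deviations of -0.02, -0.20 and 0.22 from its mean in replicates 1, 2 and 3 and a ratio of 1.33. Atp6ap2 had the same shape, at 0.01, -0.15 and 0.14, while Atp6v0d1 was lowest in replicate 3, at 0.09, 0.08 and -0.17. Atp6v1b2, Atp6v1h and Atp6v0a2 varied least, with SDs of 0.020, 0.022 and 0.030.

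In TPM, all 10 genes were lower in replicate 2 than in replicate 1, as were 90.7% of detected protein-coding genes. In replicate 3, 8 of 10 were lower than in replicate 1, against 86.8% of detected protein-coding genes, so both counts lay near the background. The log2 ratio of replicate 3 to replicate 1 was also read against transcript length. Over the 20 detected subunit genes Spearman's rho between them was 0.74, over the 10 genes it was 0.45, and over 9023 detected protein-coding genes it was 0.38. The ratio of TPM was 0.689 for the shortest gene, Rnasek (596 bases), and 0.84 and 0.894 for the longest, Atp6v1a (4132 bases) and Atp6v0a2 (5266 bases). The lowest ratio was 0.637 for Atp6v1f (702 bases) and the highest 1.04 for Atp6v0a1 (3514 bases). The points share the same 2 libraries, and the part of fragment size or RNA quality in this relation was not tested.

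**Figure D5:**
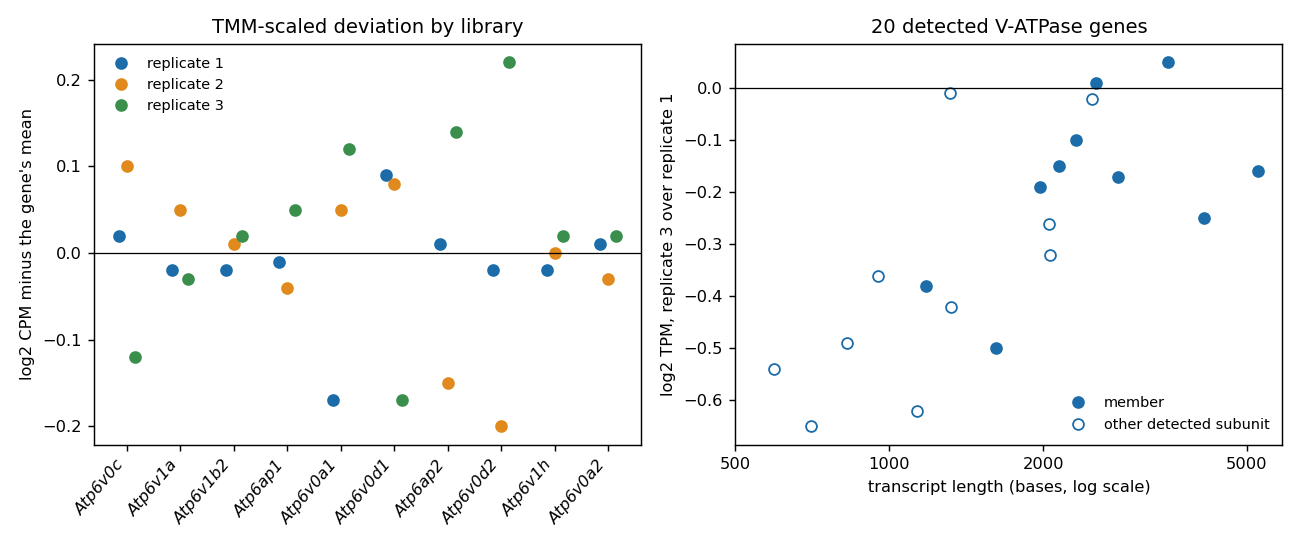
Left, deviation of TMM-scaled log2 CPM from each gene's mean, with a point for each library; right, log2 ratio of TPM in replicate 3 to replicate 1 against transcript length on a log axis, filled for the 10 genes and open for other detected subunits. Atp6v0d2 has the widest spread on the left, from -0.20 to 0.22, and the 4 shortest genes lie between -0.65 and -0.36 on the right.

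Counting limits touch few of these values. Transcripts of other genes that match a member at 90% identity or more over at least 100 bases held 0 to 8 counts, apart from Atp6v0c-ps2. Exons of 4930404A12Rik overlap Atp6v0a2 on the opposite strand over 663 bases, and exons of Rgs20 overlap Atp6v1h over 127 bases. Both had 0 counts in every library. Whether counting used the strand is not given in the sources used here, so reads from these stretches cannot be told apart by strand.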

How the data were processed

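Each of the 3 libraries came with a gene table, a transcript table in the same format and a second transcript table with kallisto's column names. Per the file headers, the first 2 have the columns that RSEM writes; the sources used here give no tool versions. By the labels and deposited notes, values refer to mm10 and GENCODE M21. The authors deposited expected counts (estimated reads per gene or transcript) and TPM, with a posterior mean TPM and its interval bounds, and each transcript's share of its gene as a percent. Replicates were not pooled.

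From these, means and SDs over libraries, within-library log2 ratios (0.1 TPM added) and paralog shares were computed with pandas 2.3.3. Exon shares summed the TPM of coding and other transcripts spanning each junction, by exon content. Expected counts were rounded and scaled in edgeR 4.0.16 (TMM, filterByExpr, intercept only, prior count 2); the spread calculation was tested on simulated data. DESeq2 1.42.0 size factors were an alternative. Similar transcripts were sought with blastn 2.17.0.

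The genes named are the 10 members, the highest and lowest of each list, paralogs of members, the 3 genes nearest in level and isoforms with a mean share of at least 10%; other names are given as chosen after the values were seen, or complete a count. Members and lists were chosen with earlier results of these data known. Depth was 26318761 to 56290298 counts, and floors cover counting error only. With 1 group, no treatment was compared.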

Additional observations from a re-analysis of the deposited data

How the results depend on the processing

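Of 245 alternative values for 45 results, 201 stayed within the spread between libraries (for counts and the median SD, within 1.5 times). The others moved further, and 1 reversed: the log2 ratio of Tcirg1 to Atp6v0a1, -0.10 with kallisto-format TPM. Leaving out 1 of 3 libraries cannot move a gene's mean level, ratio or share by more than its SD. Such values stayed within the spread by construction, so the count of 201 is not a measure of robustness. The median level of the 10 genes was 38.5 with kallisto-format TPM and 347 with TPM rescaled to protein-coding genes, the latter since its total is restricted to coding genes. The log2 ratio of Atp6v0a1 to Atp6v0a2 was 3.95 with 1 TPM added and 3.64 with posterior mean TPM, where 1 short transcript raised Atp6v0a2 in replicate 3. The ratio of Atp6v1a to Atp6v1b2 was 0.30 with kallisto-format TPM; the cause was not tested. The median SD ranged from 0.0417 (without replicate 3) to 0.0619 (without replicate 1) when 1 library was left out, and 1 gene exceeded a ratio 25% above 1 (0 at 1.5). The Tcirg1 ratio, the exon shares, the share of Atp6v0d2, and the alternatives for neighbouring pairs, the count of leading isoforms and osteoclast markers were added after the data were seen. No paired analysis was possible because there is 1 group. With 3 libraries, SDs are imprecise.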
